A study of Mus musculus with 8 samples.

Results

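DNA replication and S-phase genes were followed across nuclei of the dorsal telencephalon, from which the cerebral cortex develops. The genes were taken from a list of 38 symbols, of which 35 had a row in a table of 14166 genes, and Cdt1, Fen1 and Gins2 were not analysed here. The 8 samples, 4 wildtype and 4 with the knockout of Pantr2, a long noncoding RNA gene (Pantr2-/-), came from E15.5 C57BL/6J mouse embryos. Nuclei from flash-frozen tissue were counted with a droplet method in which each unique molecular identifier (UMI) stands for 1 captured transcript. The counts of Pantr2 were not analysed here, so the genotypes rest on the labels. No label says whether the samples are separate embryos or pools, and p-values measure the spread between these samples.

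Before a cell copies its DNA, the MCM helicase is loaded onto replication origins with the help of Cdc6 and is then activated by Cdc45 and the GINS complex. DNA polymerase alpha with its primase starts each strand, the clamp PCNA and its loader hold the other polymerases on the template, and ligase joins the fragments of the lagging strand. Ribonucleotide reductase and thymidylate synthase supply nucleotides, chromatin factors repackage the new DNA, and checkpoint proteins watch the fork. In the embryonic cortex these genes are used by dividing progenitors, chiefly the apical progenitors that line the ventricle, and are switched down in postmitotic neurons. Many of them are known targets of the E2F transcription factors, which act around the entry into S phase.

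The 67319 nuclei held 7280 to 10921 nuclei and 20446698 to 34083796 UMIs per sample, with medians of 2570 to 2905 UMIs per nucleus. Each pair of libraries shared between 8 and 30 cell barcodes. Of the 7 deposited clusters, cluster 4 (10948 nuclei) had the highest level of all 9 apical progenitor markers measured, among them Pax6 and Notch1. Cluster 5 (7826 nuclei) had the highest level of all 6 intermediate progenitor markers, among them Eomes, and clusters 1 to 3 had the highest levels of all upper-layer and deep-layer neuron markers. No marker of these lists was highest in cluster 6 or 7, which stay unnamed. The highest levels of 4 of 6 interneuron markers and 3 of 4 oligodendrocyte precursor markers also lay in cluster 4, at most 39.2 counts per 1000000 UMIs for any of them. Levels below are UMI counts scaled to 1000000 UMIs of the same nuclei (CPM), given as the mean ± SD over samples. They are not corrected for gene length, so a level is compared only within a gene or for a fixed sum of genes.

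Promoter windows of 300 bases, from 250 before to 50 after the start site, were found in RefSeq (GRCm38.p6) for 28 of the 35 genes, as 32 windows. Those of Hells, Dtl, Mcm5 and Mcm7 are shown because the genotype differences below turn on these genes, and that of Brip1 because it had the largest ratio of cluster 4 to the neurons and a late peak. Capitals mark 4 words of the E2F type, TTTCCCGC, TTTGGCGC, TTTCGCGC and TTTGCCGC, read on both strands, and overlapping words are merged. All are written 5′ to 3′ on the gene's strand.
Hells (chr19:38930740-38931039, plus strand): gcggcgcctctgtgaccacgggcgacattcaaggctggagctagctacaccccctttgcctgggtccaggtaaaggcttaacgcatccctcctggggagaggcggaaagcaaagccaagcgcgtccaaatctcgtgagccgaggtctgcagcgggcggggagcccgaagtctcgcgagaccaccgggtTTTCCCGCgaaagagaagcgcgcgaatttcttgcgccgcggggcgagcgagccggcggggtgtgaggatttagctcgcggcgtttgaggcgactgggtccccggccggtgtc
Dtl (chr1:191575495-191575794, minus strand): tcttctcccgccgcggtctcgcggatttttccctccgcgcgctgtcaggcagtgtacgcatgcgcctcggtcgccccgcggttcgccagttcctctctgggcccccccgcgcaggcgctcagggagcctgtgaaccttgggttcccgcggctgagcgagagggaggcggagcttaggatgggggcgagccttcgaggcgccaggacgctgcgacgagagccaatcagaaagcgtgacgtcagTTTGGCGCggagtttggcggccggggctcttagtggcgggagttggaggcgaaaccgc
Mcm5 (chr8:75109259-75109558, plus strand): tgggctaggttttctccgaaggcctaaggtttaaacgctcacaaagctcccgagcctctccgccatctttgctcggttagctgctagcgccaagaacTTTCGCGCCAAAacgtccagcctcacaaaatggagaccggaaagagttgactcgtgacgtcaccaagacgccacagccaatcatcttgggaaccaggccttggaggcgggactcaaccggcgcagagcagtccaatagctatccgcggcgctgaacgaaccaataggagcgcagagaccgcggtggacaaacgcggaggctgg
Mcm7, upstream window (chr5:138171834-138172133, minus strand): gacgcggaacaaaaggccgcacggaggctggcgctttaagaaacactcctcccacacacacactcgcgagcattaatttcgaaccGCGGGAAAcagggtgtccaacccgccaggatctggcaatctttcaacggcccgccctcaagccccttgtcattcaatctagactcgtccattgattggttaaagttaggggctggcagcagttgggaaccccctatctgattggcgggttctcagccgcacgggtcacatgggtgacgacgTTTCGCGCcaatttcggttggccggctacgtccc
Brip1 (chr11:86201144-86201443, minus strand): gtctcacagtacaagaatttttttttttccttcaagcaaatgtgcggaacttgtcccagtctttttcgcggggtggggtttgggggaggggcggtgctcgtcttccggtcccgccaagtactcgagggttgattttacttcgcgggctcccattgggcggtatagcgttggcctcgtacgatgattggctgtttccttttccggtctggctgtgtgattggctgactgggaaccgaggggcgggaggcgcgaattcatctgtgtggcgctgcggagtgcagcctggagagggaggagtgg

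At least 1 of these words stood in 13 of the 32 windows (40.6%), against 744 of 32851 windows of all genes (2.27%). Mcm6 held 3 words, and Mcm3, Mcm5, Mcm7 and Rfc3 held 2 each. Dtl held 1 word 8 bases before its start site, and Hells 1 word 62 bases before it. No word was found in the windows of Brip1, Blm, Pcna or Rrm2, which says only that these letters are not in those windows. A list of 20 mitosis genes had 21 windows, for 18 of its genes, and 1 of them held such a word (4.76%). Other replication genes held one in 11 of 43 windows (25.6%) and regulators of the entry into S phase in 6 of 14 (42.9%), against the 40.6% above. The word CCAAT stood in 23 of the 32 windows of the replication genes (71.9%), in 20 of 21 of the mitosis genes (95.2%), in 8 of 14 of the regulators (57.1%), in 17 of 43 of the other replication genes (39.5%) and in 37.4% of all windows. A match is a description of the sequence and not a binding site.

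The replication genes were concentrated in cluster 4. Their summed level was 2591 ± 233 CPM there (n = 8 samples) and 619 ± 31.6 CPM in cluster 5. The other clusters lay between 508 ± 30.8 CPM in cluster 7 and 580 ± 36.5 CPM in cluster 1. Cluster 4 held 47.7% of all UMIs of these genes but 17.2% of all UMIs. After each nucleus was thinned to 1400 UMIs, 87.9 ± 2.51% of cluster 4 nuclei had at least 1 UMI of these genes, against 56.3 ± 3.06% in cluster 5. The share was 51.0% to 55.6% in the 5 neuronal and unnamed clusters. In clusters 1 to 3, which had the neuron markers, it was 53.2% to 55.6%, and whether free RNA or the neurons' own transcripts gave these UMIs was not tested. For single genes the neuronal level was not even, since Prim2 stood at 56.0 CPM in cluster 1 and 97.5 CPM in cluster 3. Without thinning the shares were 96.2% in cluster 4 and 75.01% to 81.1% elsewhere, at median depths of 2908 and 2349 to 3122 UMIs per nucleus. The clusters were made from the same counts, so these levels are a description and carry no test.

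Each of the 35 genes had a higher level in cluster 4 than in clusters 1 to 3 combined, in all 8 samples, but by very different ratios. The ratio was at least 10 for 9 genes, between 2 and 10 for 23 and under 2 for 3, with a median of 3.804. Cluster 5 stood closer to the neurons, with a median ratio of 1.22, and only 6 genes there exceeded the neurons by more than 1.5-fold. For 33 of the 35 genes cluster 4 lay above cluster 5 in all 8 samples.

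**Figure D1:**
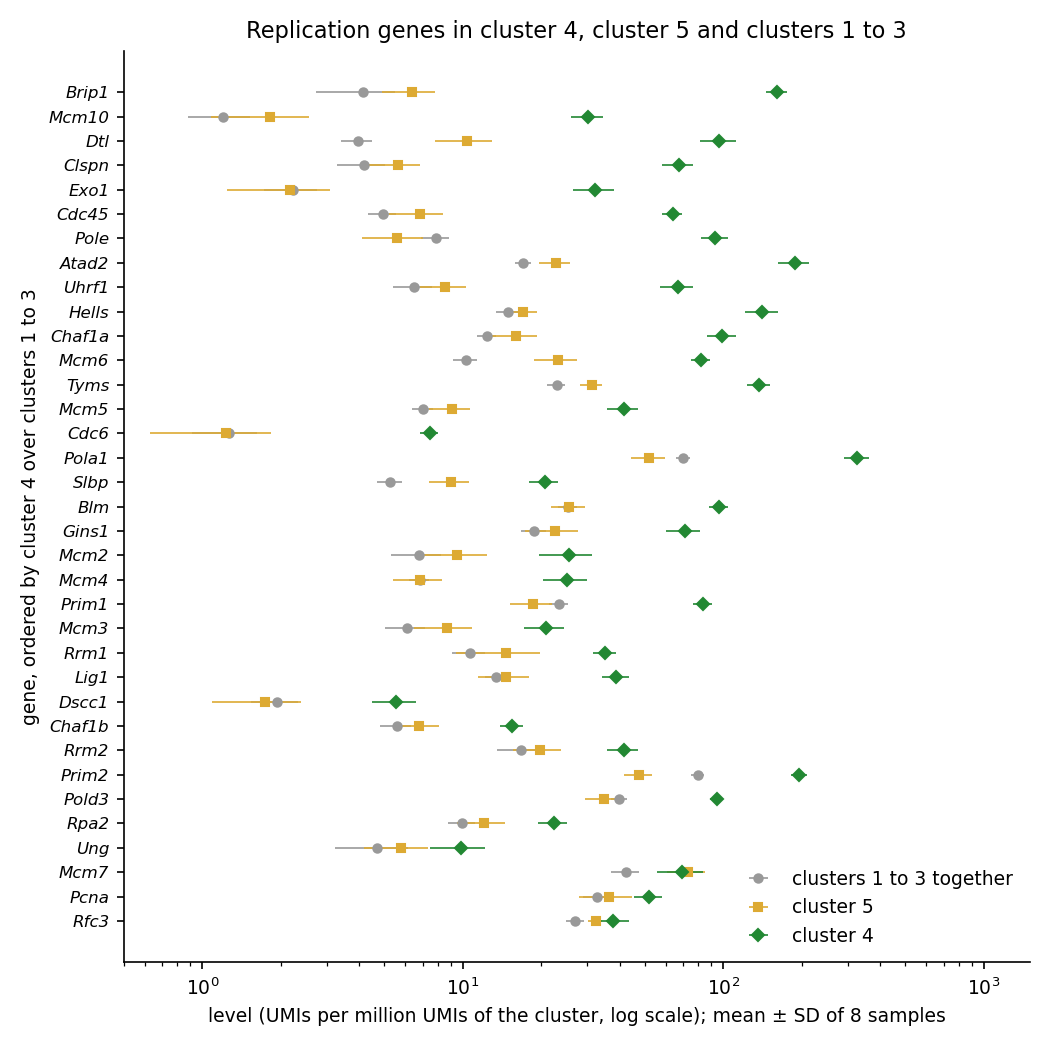
Level of each of the 35 replication genes (CPM, log axis, not corrected for gene length, so genes are not compared with each other) in cluster 4, cluster 5 and clusters 1 to 3 together. Points and bars are the mean and SD of 8 samples. The genes are ordered by the cluster 4 ratio, from Rfc3 (1.398) at the bottom to Brip1 (38.9) at the top, and cluster 5 lies beside the neurons for most genes.

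Among the 10 genes of origin licensing and the helicase, Mcm10, which helps activate the loaded helicase, had the highest ratio. Its level was 30.2 ± 4.34 CPM in cluster 4 and 1.20 ± 0.320 CPM in clusters 1 to 3, a ratio of 25.2. Mcm6, a helicase subunit, stood at 81.9 ± 6.97 CPM in cluster 4, 23.1 ± 4.38 CPM in cluster 5 and 10.2 ± 1.06 CPM in the neurons. Mcm7, another subunit, had 69.5 ± 14.0 CPM in cluster 4, 73.0 CPM in cluster 5 (58.9 to 93) and 42.2 ± 5.36 CPM in the neurons. The levels of Mcm7 in clusters 4 and 5 did not differ beyond their spread, and cluster 4 was the higher of both in only 2 of 8 samples. Mcm7 overlaps Ap4m1 by 421 bases and Cops6 by 64 bases, and a processed pseudogene, Gm5487, matches 2157 of its bases at 97.7% identity, so some of its UMIs may belong to other genes.

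The 9 genes of the polymerases and the clamp had the lowest median ratio, 2.45. Pola1, the catalytic subunit of DNA polymerase alpha, gave 12.6% of all UMIs of the replication genes in cluster 4, from a gene body of 327 kb, the longest of the list. Its level was 326 ± 35.2 CPM in cluster 4, 51.9 ± 7.68 CPM in cluster 5 and 70.2 ± 4.48 CPM in the neurons, so cluster 5 was below the neurons, in all 8 samples. The same order held for Prim2, a primase subunit, at 195 ± 13.6, 47.5 ± 5.84 and 79.7 ± 4.31 CPM. The smallest ratios of all 35 genes were those of the clamp loader subunit Rfc3 (37.7 ± 5.67 CPM in cluster 4, 27.0 ± 2.19 CPM in the neurons) and of the clamp itself, Pcna. Pcna stood at 51.9 ± 6.45 CPM in cluster 4, 36.3 ± 8.34 CPM in cluster 5 and 32.8 ± 3.91 CPM in the neurons. A pseudogene, Pcna-ps2, matches 781 bases of Pcna at 99.2% identity.

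Among the 3 genes that act on Okazaki fragments and in base repair, Lig1, the replicative DNA ligase, had 38.8 ± 4.58 CPM in cluster 4 against 13.4 ± 1.22 CPM in the neurons. The exonuclease Exo1 had a ratio of 14.4. Of the 3 nucleotide supply genes, Tyms, thymidylate synthase, had 137 ± 14.0 CPM in cluster 4 and 22.9 ± 1.81 CPM in the neurons, a ratio of 5.99. Rrm2, the regulated subunit of ribonucleotide reductase, had a ratio of 2.49. Among the 6 genes of chromatin and histone supply, Atad2, a bromodomain ATPase, stood at 188 ± 25.9 CPM against 17.0 ± 1.18 CPM. Hells, a chromatin remodeller that supports DNA methylation, stood at 141 ± 20.4 CPM against 14.9 ± 1.57 CPM, a ratio of 9.47.

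The 4 genes of the fork checkpoint and repair had the highest median ratio of any role, 20.4. Brip1, a helicase of the Fanconi anaemia and BRCA1 pathway, stood at 160.0 ± 14.7 CPM in cluster 4 and 4.12 ± 1.39 CPM in the neurons, a ratio of 38.9. Dtl, the substrate receptor of a ubiquitin ligase that removes Cdt1 in S phase, stood at 96.6 ± 15.48 CPM in cluster 4, 10.4 ± 2.56 CPM in cluster 5 and 3.94 ± 0.527 CPM in the neurons. Its ratio of cluster 5 to the neurons, 2.63, was the largest of the 35 genes. Blm, the helicase mutated in Bloom syndrome, had a smaller ratio of 3.804.

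The authors deposited a cell cycle angle for each nucleus, running once round the cycle from 0 to 2π. By the usual reading of this angle, S phase lies between π/2 and π, G2 and mitosis between π and 7π/4, and G1 or G0 between 7π/4 and π/4. The angle was computed from expression in the same nuclei, so the profiles below describe the genes and test nothing. In cluster 4 the summed level was 773 ± 79.1 CPM at the G1/G0 angle, 1474 ± 150 CPM between π/4 and π/2, 3505 ± 301 CPM at the S angle and 1664 ± 191 CPM at the G2/M angle. Of 16 equal bins, the highest was 3π/4 to 7π/8, at 4047 ± 464 CPM. Among the 12 bins with at least 10 nuclei in every sample, the highest bin of each of the 35 genes lay within the S angle. It was 5π/8 to 3π/4 for 17 genes, 3π/4 to 7π/8 for 16 and 7π/8 to π for 2, Rrm1 and Blm. In the 4 thinly filled bins Mcm7, Rrm2 and Ung had higher means, with SDs above them, of 153 ± 244 and 81.85 ± 133 CPM from 11π/8 to 3π/2 and 41.3 ± 62.6 CPM from 3π/2 to 13π/8. The first harmonic of the bins put the peak of the sum at 0.743π ± 0.0245, against 1.10π ± 0.0218 for the 20 mitosis genes.

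**Figure D2:**
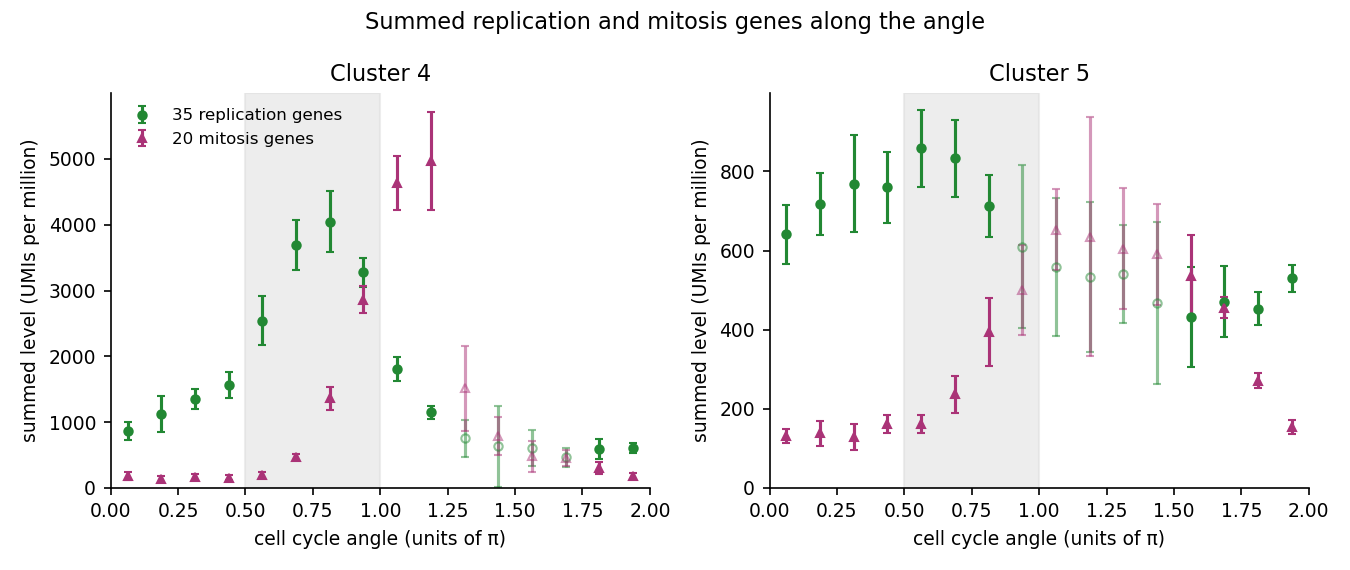
Summed level of the 35 replication genes and of the 20 mitosis genes in 16 bins of the cell cycle angle, in cluster 4 and cluster 5, with the S angle shaded. Points and bars are the mean and SD over the samples with nuclei in the bin, and open symbols mark bins in which some sample has fewer than 10 nuclei. In cluster 4 the replication genes reach 4047 CPM within the S angle and the mitosis genes reach 4971 CPM after it.

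The peak angles of the genes differed. Among the 21 genes with at least 100 UMIs in cluster 4 of every sample, the earliest by the first harmonic were Mcm7, Mcm6 and Pcna, and the latest were Brip1, Blm and Rrm2. Mcm7 (0.614π ± 0.486) and Rrm2 (0.958π ± 0.291) varied widely between samples. With well-filled bins alone, those with at least 10 nuclei in every sample, Mcm7 came to 0.525π ± 0.0829 and Rrm2 to 0.700π ± 0.0584, which moved Rrm2 to the middle of the order. Mcm6 lay at 0.592π ± 0.0418 and Pcna at 0.606π ± 0.0694 on that measure, and these neighbours did not differ beyond their spread. Pola1 followed at 0.682π ± 0.0118, Tyms at 0.736π ± 0.0361, Atad2 at 0.780π ± 0.0162, Blm at 0.825π ± 0.0475 and Brip1 at 0.868π ± 0.0132. Over all genes of each role, those with fewer UMIs included, the median ran from 0.649π for origin licensing to 0.659π for Okazaki fragments and base repair, 0.670π for the polymerases, 0.705π for chromatin, 0.709π for nucleotide supply and 0.810π for the checkpoint genes. Within origin licensing, Mcm10 (0.813π), Cdc45 (0.764π) and Gins1 (0.737π) lay apart from the 6 subunits of the MCM ring, which lay between 0.525π and 0.654π.

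**Figure D3:**
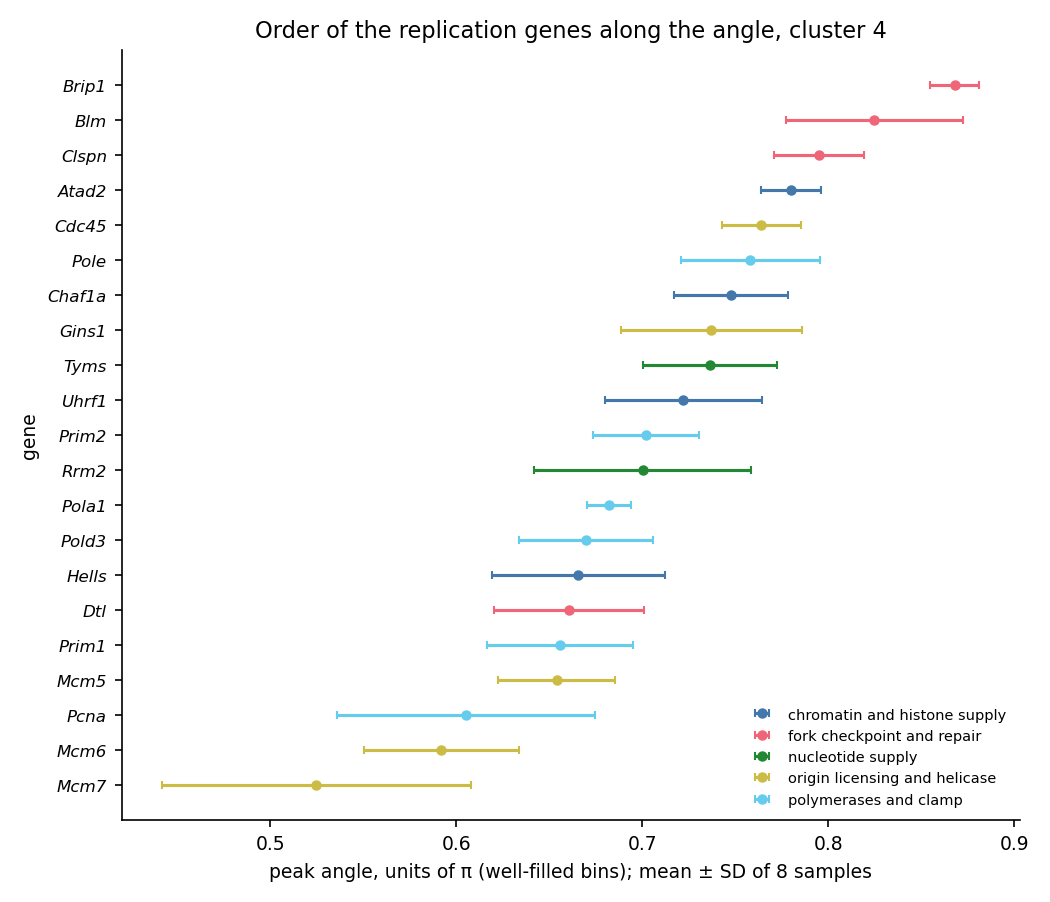
Peak angle in cluster 4 (horizontal axis, units of π) of the 21 replication genes with at least 100 UMIs in every sample, from well-filled bins, coloured by role. Points and bars are the mean and SD of 8 samples. Mcm7, Mcm6 and Pcna are earliest and Brip1 is latest, at 0.868π. Bins left out pull these angles away from the gap they leave, more so for genes with a flatter profile.

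In cluster 5 the same sum changed far less along the angle. It was 560.0 ± 34.0 CPM at the G1/G0 angle, 796 ± 62.6 CPM at the S angle and 488 ± 71.8 CPM at the G2/M angle. The share of nuclei at the S angle was 13.3% there against 52.0% in cluster 4. Nuclei of the neuron clusters also had a somewhat higher sum at the S angle, for example 687 ± 47.8 against 559.8 ± 41.9 CPM in cluster 1, at a higher median depth (3736 against 2323 UMIs).

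Knockout was compared with wildtype on UMIs summed per sample with edgeR's quasi-likelihood test, with a gene called at an adjusted p under 0.05 over all genes of the fit. In sums over all nuclei, a change in the number of progenitors and a change in the RNA of each cannot be told apart. The summed level was 967, 882, 755 and 803 CPM in wildtype replicates 1 to 4 and 1123, 1042, 924 and 842 CPM in knockout replicates 1 to 4. The groups overlapped, and the 2 highest samples of each group were replicates 1 and 2. Cluster 4, where these genes were concentrated, held 20.2%, 13.7%, 9.69% and 12.9% of the nuclei of wildtype replicates 1 to 4 and 25.5%, 19.6%, 15.2% and 13.1% of those of the knockout replicates. The groups overlapped here too, the share was higher in knockout in each of the 4 same-numbered pairs, and its part in the result was not tested. Of the 35 genes 34 had a higher fitted level in knockout, with a median log2 fold change of 0.31 against 0.00099 for all 13926 genes tested. Only Dtl passed the test (1 of 35), while 5.26% of all genes were called. At an unadjusted p under 0.05 there were 20 of the 35 genes and 19.1% of all genes.

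Dtl stood at 20.1, 16.4, 13.3 and 15.1 TMM-scaled CPM in wildtype replicates 1 to 4 and at 29.5, 26.7, 24.0 and 19.4 in the knockout replicates. Every knockout sample but replicate 4 was above all wildtype samples. The log2 fold change was 0.62 ± 0.15 (SE; edgeR adjusted p = 0.0407), and the call was lost when any 1 of 6 of the 8 samples was left out, with the highest edgeR adjusted p, 0.124, without knockout replicate 2. Deviations of same-numbered samples were positively correlated, though not always more than those of different numbers. A fit blocked on replicate called 11 of the 35 genes, all higher in knockout, with 9.65% of all genes called. These were Dtl, Hells, Pole, Uhrf1, Mcm5, Tyms, Cdc45, Atad2, Rrm1, Ung and Mcm10, with edgeR adjusted p between 0.00535 for Dtl and 0.0498 for Mcm10. DESeq2 called 6 of the 35 genes and 8.72% of all genes.

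By role, the median log2 fold change over all nuclei was 0.37 for the 10 origin licensing genes, 0.14 for the 9 polymerase and clamp genes, 0.41 for the 3 Okazaki fragment and base repair genes and 0.32 for the 3 nucleotide supply genes. It was 0.32 for the 6 chromatin genes and 0.35 for the 4 checkpoint genes. The 1 gene with a lower fitted level was Pold3, a subunit of polymerase delta, at -0.03 ± 0.06. Wildtype replicate 1 and knockout replicate 1 also had the highest apical marker sums over all nuclei, 1277 and 1094 CPM, against 864 to 997 and 823 to 938 CPM in the other samples of their groups. Without both, the ratio of the summed level was a log2 value of 0.20, against 0.21 with all samples, and Dtl was again the 1 gene called. The apical marker sum was not higher in knockout (939 ± 114 CPM) than in wildtype (1001 ± 194 CPM). The median log2 fold change of its 9 markers was nonetheless 0.27. Of them Nes was called, higher in knockout (0.56 ± 0.06, edgeR adjusted p = 0.000646), as it was in clusters 1, 2, 3 and 7. The mitosis genes stood at 617 ± 120 CPM in knockout against 522 ± 103 CPM in wildtype. Their part in the result was not tested.

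Within cluster 4 the difference was smaller. The summed level was 2476, 2636, 2382 and 2505 CPM in the wildtype replicates and 2443, 2931, 2962 and 2398 CPM in the knockout replicates, which overlapped. Of the 35 genes 33 had a higher fitted level in knockout, with a median log2 fold change of 0.13, and the exceptions were Clspn and Slbp at -0.0036 and -0.04. Hells alone passed the test (1 of 35), with 4.29% of all genes called, and 6 of 35 had an unadjusted p under 0.05, as had 1907 of all 11935 genes tested. Its values were 127, 125, 118 and 125 TMM-scaled CPM in the wildtype replicates and 146, 172, 173 and 146 in the knockout replicates, with no overlap. The log2 fold change was 0.35 ± 0.08 (edgeR adjusted p = 0.0229).

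The Hells call did not hold under the replicate block (edgeR adjusted p = 0.0553), where Dtl was called instead (edgeR adjusted p = 0.0388, 4.03% of all genes called). DESeq2 called Hells and Dtl and 4.81% of all genes. The Hells call was lost without any 1 of 6 of the 8 samples, with edgeR adjusted p up to 0.0807. Dtl had 77.6, 85.4, 89.5 and 85.5 TMM-scaled CPM in wildtype and 93.5, 114, 127 and 102 in knockout, again without overlap, at a log2 fold change of 0.36 ± 0.10 (edgeR adjusted p = 0.0598). Mcm4 had the largest fitted difference, 0.45 ± 0.13 (edgeR adjusted p = 0.0720). The most counted gene of each role did not pass the test. Mcm6 differed by 0.14 ± 0.08, Pola1 by 0.09 ± 0.10, Lig1 by 0.14 ± 0.11, Tyms by 0.02 ± 0.09, Atad2 by 0.09 ± 0.12 and Brip1 by 0.0057 ± 0.09 on the log2 scale. Of the genes at the ends of the cluster and angle orders, Mcm7 differed by 0.33 ± 0.14, Pcna by 0.24 ± 0.10, Rfc3 by 0.20 ± 0.14, Rrm2 by 0.20 ± 0.12, Mcm10 by 0.07 ± 0.14 and Blm by 0.06 ± 0.09.

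**Figure D4:**
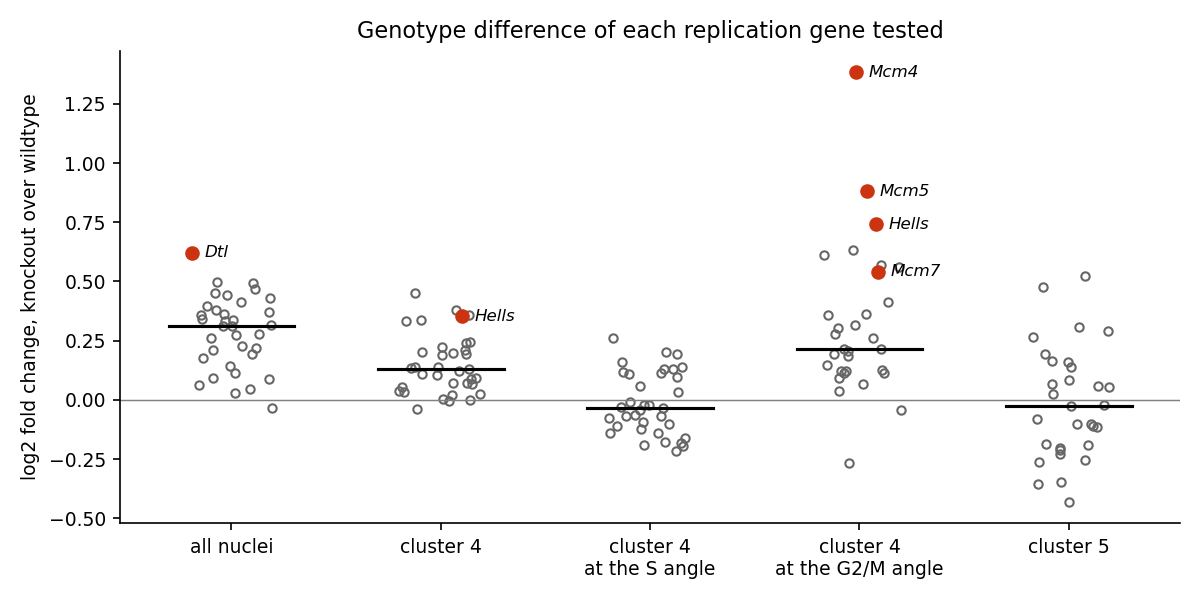
Log2 fold change, knockout over wildtype, of every replication gene tested over all nuclei (35), in cluster 4 (35), at its S angle (35), at its G2/M angle (31) and in cluster 5 (31), from edgeR. Each circle is a gene, filled and named where its adjusted p is under 0.05, and the line is the median. The medians are 0.31, 0.13, -0.03, 0.22 and -0.03 in that order.

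At the S angle of cluster 4 no genotype difference in the level of these genes was detected. The angle came from expression in the same nuclei, so similar levels in nuclei picked by it may be partly built in. Whether the level per nucleus is unchanged cannot be read from this, and the limit holds for every comparison at an angle. The groups also differed in how their nuclei were spread over the S angle, as given below, and the part of this was not tested. The summed level was 3586 ± 153 CPM in wildtype and 3424 ± 413 CPM in knockout (n = 4 each). edgeR called 0 of 35 genes with 2.81% of all genes called, DESeq2 also called 0, and 0 of 35 had an unadjusted p under 0.05, against 13.4% of all genes. The median log2 fold change was -0.03, and 13 of 35 genes were higher in knockout. Hells differed by 0.13 ± 0.09 and Dtl by 0.14 ± 0.10 there, with edgeR adjusted p of 0.557 and 0.628. With the S angle moved to 3π/8 to 7π/8 the count was again 0.

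The share of cluster 4 nuclei at the S angle was higher in the knockout samples, but the difference did not reach an adjusted p under 0.05. It was 43.7%, 47.1%, 50.1% and 49.8% in wildtype replicates 1 to 4 and 56.1%, 57.2%, 57.3% and 54.3% in the knockout replicates, so every knockout sample was above every wildtype sample. The difference of 8.56 percentage points had an exact permutation p of 0.0286, which is the lowest this design can give, and 0.0571 after adjustment over clusters 4 and 5. With genotypes exchanged within replicate numbers (replicate block), the exact p could not go below 0.125, and it was 0.25 after adjustment. The difference was 1.65 points when the window was 3π/8 to 7π/8 (adjusted exact p = 0.171). The bin from 7π/8 to π held 14.6 ± 1.99% of wildtype nuclei (11.6% to 15.8%) and 21.5 ± 1.41% of knockout nuclei (19.5% to 22.8%). The bin from 9π/8 to 5π/4 held 7.93 ± 0.856% of wildtype (6.95% to 8.77%) and 3.68 ± 1.20% of knockout nuclei (2.52% to 4.91%). In neither bin did the groups overlap, and both were looked at after the profile had been seen and carry no test.

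In cluster 5 the share at the S angle was 11.4%, 13.3%, 15.4% and 10.6% in wildtype and 15.8%, 13.9%, 10.7% and 15.0% in knockout, which overlapped (difference 1.15 points, exact permutation p = 0.457). The genotype differences of clusters 4 and 5 themselves differed by 7.41 points (exact permutation p = 0.0286, again the lowest possible). With genotypes exchanged within replicate numbers (replicate block) the exact p was 0.125, the lowest that exchange can give, and the values of the pair numbered 4 were nearly equal (39.17 in wildtype and 39.29 in knockout). With the window from 3π/8 to 7π/8 the difference was -0.178 points (exact permutation p = 0.914), so it held for the window from π/2 to π and not for the shifted one.

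A comparison at the G2/M angle of cluster 4 was added after the profile was seen, and its nuclei too were picked by an angle made from their own expression. There 29 of the 31 genes tested were higher in knockout, with a median log2 fold change of 0.22 against -0.00045 for all genes. Mcm4, Mcm5, Mcm7 and Hells were called, all higher (4 of 31), with 2.93% of all genes called. At an unadjusted p under 0.05 there were 11 of 31 and 13.7% of all genes. These genes, and Prim2, Gins1 and Pold3 elsewhere, were singled out after their values had been seen. The summed level of the replication genes was 1520 ± 137 CPM in wildtype (1342 to 1647) and 1809 ± 107 CPM in knockout (1714 to 1914), without overlap.

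Mcm4, a subunit of the MCM ring, had 7.46, 5.61, 6.28 and 4.60 TMM-scaled CPM in wildtype, from 6 to 13 UMIs a sample, and 16.2, 16.7, 17.9 and 12.6 in knockout. Each knockout sample was above each wildtype sample, and the log2 fold change was 1.38 ± 0.25 (edgeR adjusted p = 0.00542). Hells had 53.9, 63.8, 56.5 and 39.9 in wildtype and 85.9, 97.6, 101.5 and 73.5 in knockout, also without overlap, at 0.74 ± 0.15 (edgeR adjusted p = 0.00948). Mcm5 had 13.2, 16.1, 11.5 and 19.2 against 21.8, 33.0, 32.4 and 24.1, at 0.88 ± 0.21 (edgeR adjusted p = 0.0356). Mcm7 had 40.2, 37.9, 40.8 and 42.9 against 67.8, 57.1, 58.8 and 51.7, at 0.54 ± 0.13 (edgeR adjusted p = 0.0332). Of 12 alternative settings, Mcm4 and Hells were called in all 12, Mcm5 in 5 and Mcm7 in 2. The groups did not overlap for any of these 4 genes. They were picked by the test on the same values, so this adds no further support. How many of all genes separate the groups was not counted. Of the 2 genes lower in knockout, Mcm10 stood at -0.27 ± 0.21 and Cdc45 at -0.04 ± 0.17.

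Knockout nuclei lay nearer to the S border within this interval. The share of them below 9π/8 was 83.3 ± 6.87% in knockout (74.3% to 88.9%) and 72.8 ± 2.54% in wildtype (69.7% to 75.8%). When the comparison was limited to π to 9π/8, Mcm4 (1.23, edgeR adjusted p = 0.0178) and Hells (0.64, edgeR adjusted p = 0.0323) were called again (2.28% of all genes called), and Mcm5 (0.73, edgeR adjusted p = 0.101) and Mcm7 (0.47, edgeR adjusted p = 0.102) were not. Mcm4 in that bin stood at 7.54 ± 1.85 CPM in wildtype and 17.8 ± 1.98 CPM in knockout, while at its peak bin, 5π/8 to 3π/4, it stood at 51.9 ± 9.61 and 46.5 ± 10.6 CPM, which overlapped. Hells stood at 248 ± 7.80 CPM in wildtype and 247 ± 34.5 CPM in knockout in that peak bin. In the bin from 7π/8 to π Hells stood at 137 ± 9.17 CPM (127 to 149) and 187 ± 15.9 CPM (169 to 207). From π to 9π/8 it stood at 64.7 ± 14.8 and 99.3 ± 8.05 CPM, without overlap in either bin. From 7π/8 to π Dtl was also higher in knockout without overlap. Brip1 (278 against 218 CPM), Tyms (218 against 159 CPM) and Slbp (34.7 against 24.25 CPM) were lower in knockout there, also without overlap. For Slbp the lowest wildtype value was 27.3 CPM and the highest knockout value 26.5 CPM. The groups overlapped for the other replication genes in that bin. From π to 9π/8 Mcm4, Mcm5, Mcm7, Dtl and Rrm1 were also higher in knockout without overlap. These genes were picked by their separation, without a test. How many of all genes separate in these bins was not counted. The summed level was 3398 ± 153 CPM in wildtype and 3154 ± 218 CPM in knockout from 7π/8 to π. From π to 9π/8 it was 1672 ± 174.5 and 1940 ± 55.4 CPM. The part of the interval's make-up in the G2/M result beyond this limit was not tested. Under the replicate block Mcm7 was not called (edgeR adjusted p = 0.0526) and Dtl was (edgeR adjusted p = 0.0466), with 3.19% of all genes called. DESeq2 called Mcm4 and Hells and 2.66% of all genes.

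**Figure D5:**
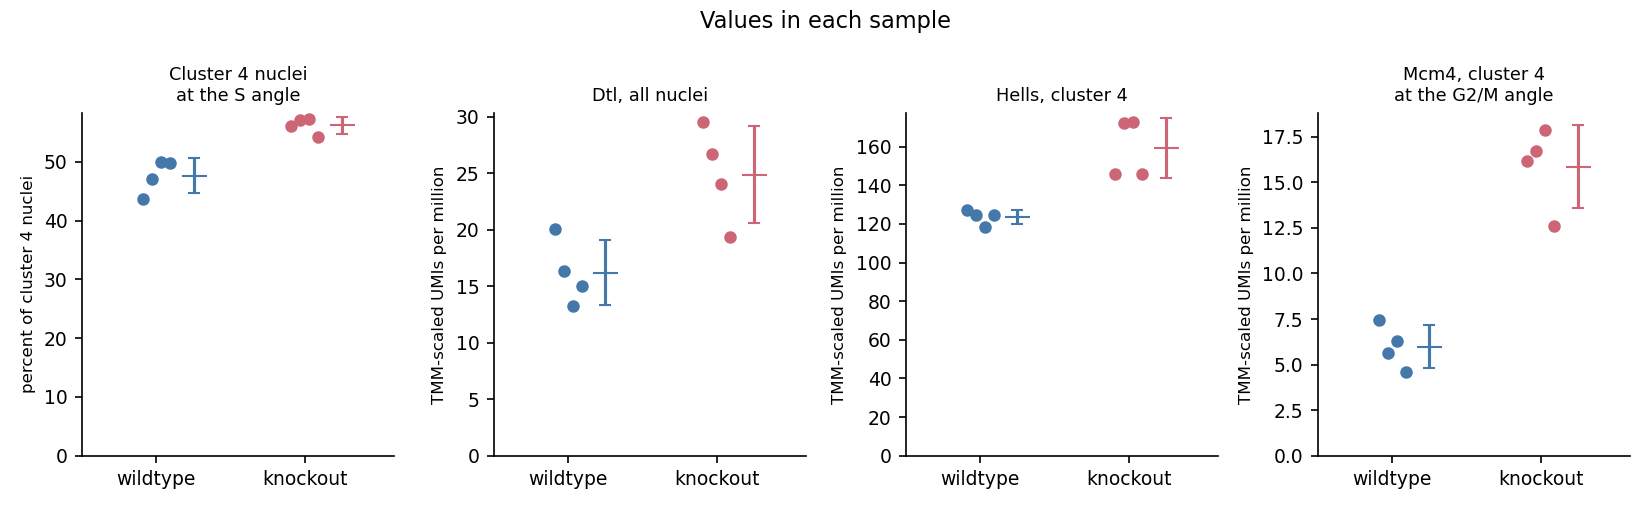
Values in each of the 4 wildtype and 4 knockout samples (points), with the mean and SD beside them: the percent of cluster 4 nuclei at the S angle, Dtl over all nuclei, Hells in cluster 4 and Mcm4 at the G2/M angle of cluster 4 (TMM-scaled CPM). The groups do not overlap in the panels of the S-angle share, Hells and Mcm4, and in the Dtl panel knockout replicate 4, at 19.4, lies under wildtype replicate 1, at 20.1.

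In cluster 5 edgeR called 0 of 31 genes, with 1.77% of all genes called, 3 genes at an unadjusted p under 0.05 (9.95% of all genes) and 0 called by DESeq2. The summed level was 634 ± 33.5 CPM in wildtype and 605 ± 25.2 CPM in knockout. At its S angle 13 genes could be tested and 0 were called by edgeR or DESeq2, with 0.964% of all genes called and 1 gene at an unadjusted p under 0.05 (8.92% of all genes). Whether the genotype difference itself differed between clusters 5 and 4 was tested for 35 genes, and edgeR called 0, with 0.655% of all genes called and 7 genes at an unadjusted p under 0.05 (9.22% of all genes), and no second tool was run. The gene nearest to the threshold was Gins1, a GINS subunit, at -0.62 ± 0.14 (edgeR adjusted p = 0.0552). Gins1 had 26.2 ± 1.69 TMM-scaled CPM in wildtype and 18.8 ± 4.53 in knockout in cluster 5, and 65.99 ± 5.68 and 75.9 ± 12.9 in cluster 4.

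In cluster 1 Prim2 was called lower in knockout (1 of 33, with 4.84% of all genes called, and 3 at an unadjusted p under 0.05 against 16.5% of all genes). Prim2 had 67.1, 59.2, 60.1 and 59.0 TMM-scaled CPM in the wildtype replicates and 48.8, 48.9, 53.5 and 50.9 in the knockout replicates, without overlap. The log2 fold change was -0.28 ± 0.07 (edgeR adjusted p = 0.0472), and the call was lost by DESeq2 (0.0957) and without any 1 sample, up to 0.165. In clusters 2, 3, 6 and 7 edgeR and DESeq2 called 0 of 31, 32, 30 and 29 genes, with 9.11%, 3.36%, 0.779% and 1.03% of all genes called in that order and 6, 6, 3 and 4 genes at an unadjusted p under 0.05. All genes stood at 21.0%, 15.3%, 9.91% and 9.68% by that measure.

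Related lists were read beside these genes. Of 42 other replication genes edgeR called 0 over all nuclei (10 at an unadjusted p under 0.05, 4 called by DESeq2, median log2 fold change 0.14) and 0 in cluster 4 (9 and 1, median 0.15). At the G2/M angle 1 of 39 was called, Dnmt1, the maintenance DNA methyltransferase, at 0.58 ± 0.13 (edgeR adjusted p = 0.0239). Of the 14 regulators of the entry into S phase, E2f3, an E2F activator, was called, at 0.39 ± 0.09 over all nuclei (edgeR adjusted p = 0.0323), 0.39 ± 0.09 in cluster 4 (edgeR adjusted p = 0.0341) and 0.50 ± 0.09 at the G2/M angle, where 12 were tested (edgeR adjusted p = 0.00608). Of the 20 mitosis genes edgeR called 0 over all nuclei and 0 in cluster 4, with 1 gene at an unadjusted p under 0.05 and 0 called by DESeq2 in each. At the S angle of cluster 4 the kinetochore genes Cenpe (0.47 ± 0.10, edgeR adjusted p = 0.0244) and Cenpf (0.51 ± 0.12, edgeR adjusted p = 0.0339) were called higher in knockout. These were 2 of 20 mitosis genes, with 2.81% of all genes called, and DESeq2 also called 2. At an unadjusted p under 0.05 there were 12 of the 20, and their median log2 fold change was 0.34. The share of all genes by that measure is given above for this angle.

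Cell type markers differed between the genotypes in cluster 4. The sum of the 9 apical markers was 2309 ± 232 CPM in wildtype (2099 to 2615) and 1802 ± 33.5 CPM in knockout (1767 to 1840), with Slc1a3 and Fabp7 called lower, while Nes did not pass the test there. Slc1a3 and Fabp7 weighed most in that sum (710 and 604 CPM over 8 samples), and the median log2 fold change of the 9 markers was -0.06. The 6 interneuron markers summed to 131 ± 31.5 and 56.0 ± 34.4 CPM, the 4 oligodendrocyte precursor markers to 10.9 ± 0.934 and 2.46 ± 0.703 CPM, the 6 vascular markers to 37.0 ± 1.22 and 17.6 ± 2.83 CPM, and the 4 microglia markers to 8.68 ± 1.16 and 4.02 ± 0.734 CPM. Of these lists Olig1, Olig2 and Pdgfrb were called, all lower. Pdgfrb weighed most in the vascular sum (13.8 of 27.3 CPM over 8 samples). The deep-layer neuron markers Fezf2 (0.47 ± 0.11, edgeR adjusted p = 0.0310) and Foxp2 (0.36 ± 0.06, edgeR adjusted p = 0.00705) were called higher, and their list summed to 2060 ± 188 and 2443 ± 489 CPM. The embryonic globin Hbb-y was also called higher (2.12 ± 0.27, edgeR adjusted p = 0.000845), while the 5 erythroid markers together stood at 440 ± 123 and 320.0 ± 94.4 CPM. No marker of these lists was without a UMI over all samples of a group. Their part in the differences of the replication genes in cluster 4 was not tested.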

How the data were processed

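Single-nucleus RNA was measured in 4 wildtype and 4 knockout samples, grouped by their labels. The authors deposited whole-number UMI counts per gene and nucleus, with a cluster number, a cell cycle angle in radians and a doublet score per nucleus, per the file headers. The submitters' processing notes name kallisto, bustools and mm10, and versions, nucleus filters and cluster and angle settings are not given in the sources used here. No deposited doublet score exceeded 0.5, and no further doublet or nucleus filter was applied. The authors' totals per nucleus exceeded the matrix sums by 0.653% to 0.958%.

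For each sample UMIs were added up over all nuclei, each cluster and intervals of the angle, from at least 92 nuclei a sample for the tested sums. Counts were tested with edgeR 4.0.16 in R 4.3.3 (TMM scaling, filterByExpr, quasi-likelihood), with p adjusted by Benjamini-Hochberg over all genes of a fit and called under 0.05. Alternatives were no filter, DESeq2 1.42.0, the replicate number as a block, each sample left out and a shifted S angle. Same-numbered samples of the 2 genotypes had correlated deviations from their group means across genes (0.398, 0.185, 0.192 and 0.179, against -0.356 to 0.287 for different numbers). Wildtype replicate 3 with knockout replicate 4 gave the 0.287, above every same-numbered value but that of replicate 1. The numbers were therefore used as a possible pairing, in the block alternatives, and the main tests leave it out. The pairing comes from the data and the shared numbers in the labels. Shares were tested by exact permutation, two-sided, over the 70 arrangements of samples. The edgeR code was tested on simulated data. Copies were sought with blastn 2.17.0.

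The genes and lists were chosen with earlier results of these data known. Genes were named where called over all nuclei, in clusters 4 or 5 or at their S angle, where most counted in a role, or where among the 3 at each end of the cluster ratio and of the peak angle. Others named were chosen after their values were seen.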

Additional observations from a re-analysis of the deposited data

Results flagged for a closer look

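Of 104 groups of 4 samples examined for a sample far from the others, 3 held one, and chance flags about 1 in 20 groups. Brip1 in cluster 4 stood at 168.1 TMM-scaled CPM in wildtype replicate 2, against 155.4 to 157.1 in the other wildtype samples. Mcm10 in cluster 5 stood at 2.941 in knockout replicate 4, against 2.11 to 2.159 in the other knockout samples. Rfc3 over all nuclei stood at 24.13 in wildtype replicate 4, against 28.97 to 29.68 in the other wildtype samples. The knockout minus wildtype share of nuclei at the S angle was 7.413 percentage points larger in cluster 4 than in cluster 5, at an exact permutation p of 0.0286, the lowest this design can give. With the replicate numbers as a block the exact p was 0.125, the lowest possible there, and with the window from 3π/8 to 7π/8 the difference was -0.178 points.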

How the results depend on the processing

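The count of replication genes called over all nuclei was 1, and it was 6 with DESeq2, 11 with the replicate block and 0 to 7 when 1 sample was left out. In cluster 4 it was 1, with 2 by DESeq2, 1 under the replicate block (Dtl in place of Hells) and 0 to 2 with 1 sample left out. In cluster 1 it was 1 (Prim2), with 0 by DESeq2 and 0 without a filter on low counts. With 1 sample left out it was 0 to 1, the 1 being Ung without wildtype replicate 1. In cluster 3 it was 0, and 0 to 1 with 1 sample left out, the 1 being Ung without knockout replicate 4. At the G2/M angle it was 4, with 2 by DESeq2, 2 when limited to π to 9π/8 and 2 to 5 with 1 sample left out. Pairing by replicate number (the block) gave an exact p of 0.25 after adjustment for the share at the S angle in cluster 4, with the difference again 8.56 points. The larger difference in cluster 4 than in cluster 5, 7.41 points, had an exact p of 0.125 under the block, was -0.178 points with the window from 3π/8 to 7π/8 and lay between 5.989 and 8.811 points with 1 sample left out, at an exact permutation p of 0.0571, the lowest possible with 7 samples. These alternatives were chosen after seeing the data. The peak of the summed genes in cluster 4 was 0.8125π by the centre of the highest bin and 0.7065π with well-filled bins, and in cluster 5 it was 0.3092π with well-filled bins. Bins left out pull such values away from the gap they leave. Of 426 alternative values for 37 gene results, 365 kept their direction and side of the threshold, 40 lost the call, 13 gained it and 8 changed sign. The sign changes were all in cluster 4 and of small values. Brip1 came to -0.0044 with the replicate block and, with 1 sample left out, lay between -0.0613 and 0.066, with further negative values of -0.0042, -0.003 and -0.0277. With 1 sample left out Blm lay between -0.0013 and 0.1028, Mcm10 between -0.0068 and 0.169 and Tyms between -0.0643 and 0.0818. The cause of these changes was not tested. Genes with few UMIs limit the tests, since only 13 of the 35 could be tested at the S angle of cluster 5.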
